A study of Mus musculus with 12 samples.

Results

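The D cyclins and G1 regulators described here are 10 genes, Ccnd2, Ccnd3, Cdk4, Cdk6, Cdkn1a, Cdkn1b, Cdkn2c, Rb1, E2f1 and E2f2, taken by gene symbol from the 12212 symbols that every count file lists. All 10 are listed, and all 10 passed the filter on low counts among 12081 tested genes. Germinal center B cells from the spleen of NZBWF1/J mice, a hybrid strain prone to a lupus-like disease, were sorted into dark zone and light zone cells, with 1000 cells acquired per library. Each zone has 3 libraries of untreated mice (control) and 3 of mice given CTLA4-Ig at 200 ug and anti-CD40L at 250 ug per dose (treated), with 6 doses of each agent within 2 weeks from an age of 18 weeks. CTLA4-Ig binds CD80 and CD86, and anti-CD40L blocks the T cell ligand of CD40. The age of the untreated mice is not given in the labels, nor whether libraries of 1 replicate number come from 1 mouse, so the p-values below measure the spread between these libraries. Levels are given in CPM, counts scaled to library size with TMM factors.

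G1 is the phase in which a cell decides whether to divide again. D-type cyclins bind the kinases CDK4 and CDK6, and the complexes phosphorylate RB1, which otherwise holds E2F transcription factors inactive; released E2F factors switch on the genes of DNA synthesis. The INK4 inhibitor p18 (Cdkn2c) binds CDK4 and CDK6, whereas p21 (Cdkn1a) and p27 (Cdkn1b) act on cyclin-kinase complexes more broadly. In germinal centers, cyclin D3 is known to sustain divisions in the dark zone, and cyclin D2 is known as a gene of cells that received signals in the light zone.

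Library totals were 16032746 to 26837714 counts, at which 3 counts correspond to 0.112 to 0.187 CPM; this floor covers counting error only. Light zone treated replicate 2, together with replicates 1 and 2 of the treated dark zone, stood apart from the other 9 libraries on the first principal component of all genes (147 to 166 against -103 to 20.4, with 30.3% of the variance). They are called the 3 outlying libraries below. Many results are given with and without them, but not all, and those without such a value may depend on them. Of 8 germinal center markers all 8 were detected, with a summed level of 1540 to 2048 CPM in the 3 outlying libraries and 3284 to 4584 in the other 9. In the 3 outlying libraries 3 of these 8 lay below all other libraries and 1 above. Those below were Rgs13 (166 to 254 against 1503 to 2514 CPM), Gcsam (89.4 to 256 against 306 to 852) and Fas (40.7 to 46.6 against 138 to 260). S1pr2 was the one above (299 to 328 against 68.5 to 169 CPM). The B cell factor Pax5 was low throughout (9.07 to 12.3 against 0.175 to 4.69 CPM). The summed level of 5 light zone markers was 847 to 1543 CPM in light zone and 279 to 560 CPM in dark zone libraries, without overlap, whereas 5 dark zone markers overlapped (827 to 1791 against 1250 to 2459 CPM). Of 11 myeloid markers 6 were higher in all 3 outlying libraries than in any other, Lyz2 among them (13.7 to 17.9 against 0.103 to 0.523 CPM), and S100a8 was at 0 in the other 9. The summed myeloid level was lower there (371 to 558 against 568 to 1155 CPM), of which Cst3 made up 267 to 374 against 550 to 1134 CPM. Of 9 T cell markers 8 are listed and 4 were higher in the 3 libraries (summed level 139 to 304 against 86.9 to 225 CPM). The summed level of 5 plasma cell markers was 1310 to 2411 CPM in the 3 libraries and 6431 to 11545 in the others, of which Jchain made up 1109 to 2154 and 6206 to 11324 CPM. Of the tested genes, 13.7% lay above all other libraries in the 3 outlying ones and 16.7% below. The part of these differences in the results below was not tested.

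Ccnd2, which encodes cyclin D2, was the member whose zones separated in controls. In dark zone controls it stood at 1.30, 1.16 and 13.0 CPM, and in light zone controls at 23.3, 109 and 93.0 CPM. Every light zone control library was above every dark zone control library. The log2 difference between zones in controls was 3.86 (SE 1.18, edgeR adjusted p = 1, unadjusted p = 0.00767), and DESeq2 called it (adjusted p = 0.0198). The groups did not overlap in 1 of 10 members, Ccnd2, against 10.1% of all tested genes. Under treatment the dark zone libraries held 16, 82.3 and 25.7 CPM of Ccnd2 and the light zone libraries 57.9, 207 and 46.0 CPM. In such bulk samples, fewer cells that express a gene and less RNA per cell cannot be told apart. The zones overlapped here, since dark zone treated replicate 2, an outlying library, exceeded 2 of the 3 light zone libraries. Averaged over both treatments the light minus dark zone difference was 2.59 (SE 0.79, edgeR adjusted p = 0.991, unadjusted p = 0.00745), or 2.46 in the 9 libraries (adjusted p = 0.726). DESeq2 placed it just under its threshold (adjusted p = 0.0487), and an exact permutation of zone labels within treatment gave a two-sided p of 0.015 (0.827 adjusted over all genes). The smallest p this permutation can give is 0.005, and 0.53% of genes reached it.

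Treated dark zone libraries also held more Ccnd2 than untreated ones, without overlap, a pattern shared by 12.5% of all tested genes. The margin was narrow, between 16 CPM in treated replicate 1, an outlying library, and 13 CPM in control replicate 3. The log2 difference was 3.0 (SE 1.13, edgeR adjusted p = 0.528, unadjusted p = 0.0233), or 2.34 in the 9 libraries, where 1 dark zone treated library is left. Without dark zone treated replicate 2 it was 2.00, and without dark zone control replicate 3, the highest of the controls, 5.06. Leaving out that same control also moved the zone difference in controls to 5.92. By group mean the order was light zone treated (104 ± 89.7 CPM), light zone control (75.1 ± 45.6), dark zone treated (41.3 ± 35.8) and dark zone control (5.15 ± 6.79; SD, n = 3 each). Of neighbours in this order, only dark zone treated and dark zone control did not overlap. Ccnd2 lies on chromosome 6 from 127125162 to 127152193 on the minus strand (GENCODE M21, mm10); 2 antisense genes, Gm43126 and 9330179D12Rik, overlap its exons, and the library kits do not keep the strand.

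Ccnd3, which encodes cyclin D3, was highest in the outlying libraries, and its zones overlapped. Dark zone controls held 65.8, 9.26 and 112 CPM, and their treated counterparts 437, 355 and 162 CPM. Light zone controls held 28.2, 37 and 84.9 CPM, and their treated counterparts 29.4, 307 and 79.1 CPM. The 3 outlying libraries held 307 to 437 CPM, above the 9.26 to 162 CPM of all others. The dark zone groups did not overlap (log2 difference 2.35, SE 0.98, edgeR adjusted p = 0.528, unadjusted p = 0.0369), but the difference was 1.40 in the 9 libraries. Dark zone treated replicate 3, which was not outlying, was the highest of those 9. Light zone groups overlapped. Averaged over treatments the zones differed by -0.76 (SE 0.67, edgeR adjusted p = 0.991), or by -1.45 without light zone treated replicate 2 and -0.39 without dark zone control replicate 3. Ccnd3 lies on chromosome 17 from 47505051 to 47599691, and its exons share 361 bases with Bysl, so reads there can come from either gene. The 250 bases before its first annotated start (RefSeq, GRCm38.p6, plus strand, chr17:47504801-47505050) are shown because Ccnd3 was the D cyclin that followed these libraries; capitals mark the GC box GGGCGG on either strand.
Ccnd3: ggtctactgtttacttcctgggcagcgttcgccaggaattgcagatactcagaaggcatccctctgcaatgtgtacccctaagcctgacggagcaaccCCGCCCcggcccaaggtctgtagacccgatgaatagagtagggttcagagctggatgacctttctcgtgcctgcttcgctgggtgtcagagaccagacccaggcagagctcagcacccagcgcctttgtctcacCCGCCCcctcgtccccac

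**Figure D1:**
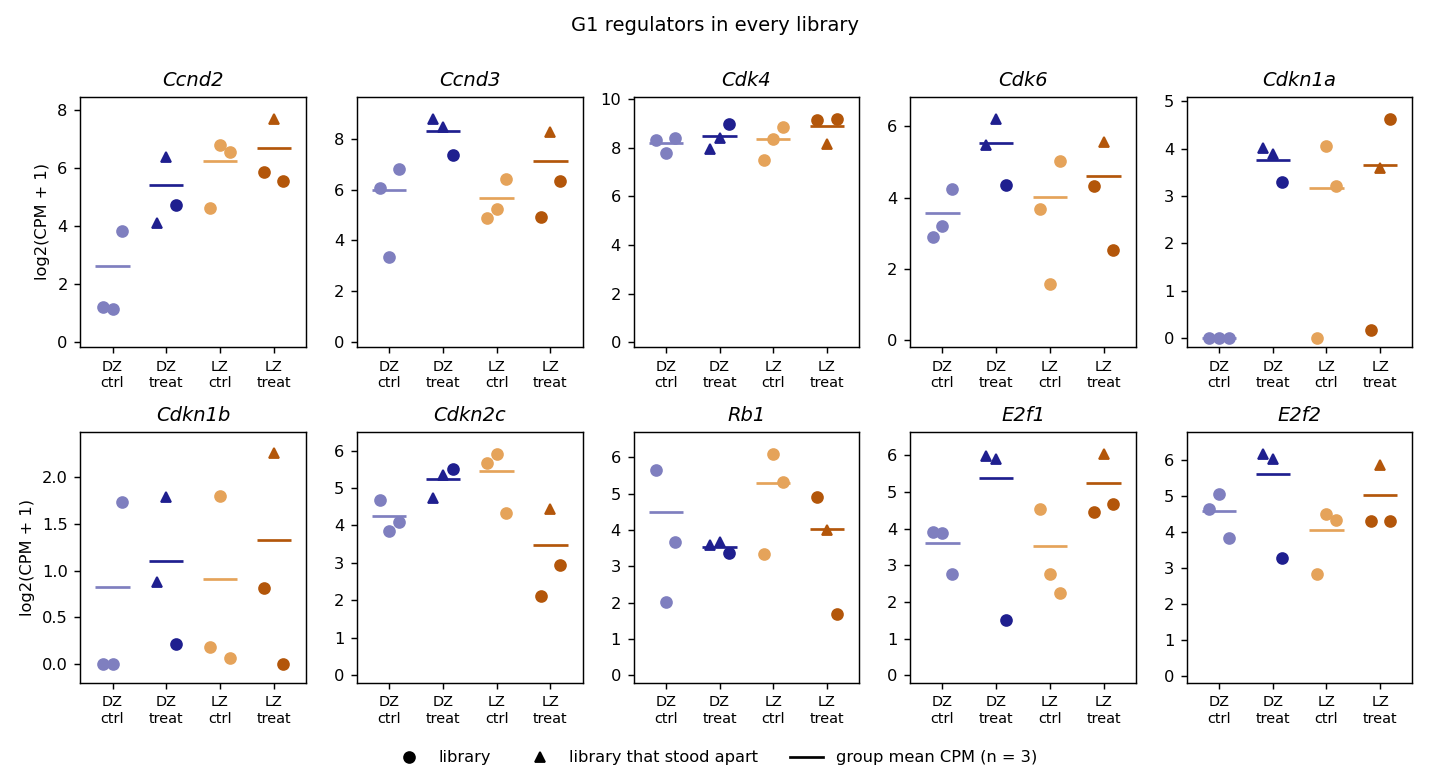
Level of each of the 10 genes in every library, as log2(CPM + 1), for dark zone (DZ) and light zone (LZ) control (ctrl) and treated (treat) libraries; triangles are the 3 outlying libraries and bars the group mean. Ccnd2 separates the zones in controls, Cdkn1a is at 0 in all dark zone controls, and Ccnd3, Cdk6, E2f1 and E2f2 are highest in the 3 triangles.

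Cdk4, the kinase partner of the D cyclins in most cells, had the highest group mean of the 10 genes in all 4 groups, although Ccnd3 was above it in the 3 outlying libraries. Dark zone controls held 320, 217 and 339 CPM, and treated dark zone libraries 243, 340 and 497 CPM. In light zone control libraries it was at 181, 330 and 466 CPM, and in light zone treated ones at 570, 286 and 581 CPM. All 4 groups overlapped, and the zones differed by 0.28 averaged over treatments (SE 0.31, edgeR adjusted p = 0.991). Per kilobase of transcript Cdk4 had the highest median of the 10 genes, 163 CPM per kilobase over 12 libraries, followed by Ccnd3 at 40.1 and Cdkn2c at 12.7. Cdk4 lies on chromosome 10 from 127063534 to 127067920 and shares 641 exon bases with Tspan31. Its upstream window (chr10:127063285-127063534, plus strand) is shown because it sets this gene apart by sequence: it holds 4 copies of the E box CACGTG, the motif that MYC binds with its partner MAX, and 1 GC box, all in capitals.
Cdk4: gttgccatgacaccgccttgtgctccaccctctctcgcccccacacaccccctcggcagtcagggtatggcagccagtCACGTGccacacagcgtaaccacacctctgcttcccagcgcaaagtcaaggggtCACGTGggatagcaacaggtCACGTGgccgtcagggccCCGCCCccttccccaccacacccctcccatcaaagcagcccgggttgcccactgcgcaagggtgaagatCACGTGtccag
An E box was found in 6.02% of 32851 such windows over all genes, and 4 or more in 0.0213% (7 windows); this motif was picked after the sequence had been read. Myc itself overlapped in every pair of groups, at 13.8 to 75.6 CPM in the 9 libraries and 15.1 to 72.9 in the 3 outlying ones.

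Cdk6, the second kinase of the D cyclins, was lower and was highest in the outlying libraries. Dark zone controls held 6.51, 8.30 and 18.1 CPM, and treated dark zone libraries 43.3, 73.1 and 19.6 CPM. Light zone controls held 11.9, 2.01 and 31.8 CPM, and treated light zone libraries 19.1, 46.1 and 4.80 CPM. The outlying libraries were above all others (43.3 to 73.1 against 2.01 to 31.8 CPM). The dark zone groups did not overlap, by a narrow margin between their nearest libraries (log2 difference 2.05, SE 1.06, edgeR adjusted p = 0.528), and the difference was 0.86 in the 9 libraries. Averaged over treatments the zones differed by -0.24 (SE 0.72, edgeR adjusted p = 0.993). Cdk6 lies on chromosome 5 from 3341485 to 3531008.

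Among the inhibitors, Cdkn1a, which encodes p21, had no counts in 4 of the 12 libraries. These 4 cells are blank in the deposited files and were read as 0; they include all 3 dark zone controls. Treated dark zone libraries held 15.2, 13.8 and 8.89 CPM, light zone controls 0, 15.7 and 8.20 CPM, and treated light zone libraries 0.117, 11 and 23.9 CPM. The gene was thus near or at the floor in 5 of the 12 libraries and at 8.20 to 23.9 CPM in the other 7. Against a floor of 3 counts per library (0.152 to 0.206 CPM in dark zone controls), the dark zone treated mean of 12.6 ± 3.31 CPM (SD, n = 3) was at least 61.4-fold higher, and the lowest treated library, replicate 3, at least 43.2-fold higher. These folds take blank cells as 0 and cover counting error only, not the spread between libraries. Light zone controls alone ran from 0 to 15.7 CPM and treated light zone libraries from 0.117 to 23.9 CPM. Dark zone treated replicate 3 was not outlying. It is the only treated dark zone library among the 9, where it lay above the dark zone controls. EdgeR gave an adjusted p of 0.528 (unadjusted p = 0.00567), and DESeq2 called the difference (adjusted p = 0.00146). Between zones in controls edgeR gave an adjusted p of 1 (unadjusted p = 0.00729) and DESeq2 called it (adjusted p = 0.0023), although light zone control replicate 1 was at 0 like the dark zone controls. Averaged over treatments the edgeR adjusted p for the zones was 0.991 (unadjusted p = 0.0151), against 0.923 by the exact permutation (unadjusted p = 0.26). The treatment effect differed between zones at an unadjusted p of 0.0138 (edgeR adjusted p = 1). This p and those of the averaged zone comparison use all 12 libraries, the outlying ones included. No edgeR fold is given for these comparisons, because with a group at 0 it depends on the prior count. The fitted values of other tools further below are no bound on the fold.

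Cdkn1a lies on chromosome 17 from 29090976 to 29100727. It is annotated with 2 transcription starts, and 6 of its 12 deposited values lie midway between whole numbers, as do values of Cdkn2c, E2f1 and E2f2; each of these 4 genes has 2 curated RefSeq transcripts. The window before its downstream start (chr17:29093519-29093768, plus strand) is shown because Cdkn1a was the member with a whole group at 0; capitals mark 2 GC boxes.
Cdkn1a: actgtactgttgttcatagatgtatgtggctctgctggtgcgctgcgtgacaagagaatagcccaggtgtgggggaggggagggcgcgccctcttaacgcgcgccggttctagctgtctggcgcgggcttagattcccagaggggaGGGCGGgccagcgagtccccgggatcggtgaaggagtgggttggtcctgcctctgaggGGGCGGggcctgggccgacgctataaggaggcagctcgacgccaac
Promoter windows were matched for 8 of the 10 genes (12 windows). The E2F site, searched as TTTCCCGC, TTTGGCGC, TTTCGCGC and TTTGCCGC on both strands, was in none of the 12 windows and in 1.86% of all windows, and a GC box was in 32.7% of all windows. The windows of E2f1 and of 1 start of Cdkn2c lie wholly within annotated exons.

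Cdkn1b, which encodes p27, was barely detected, at 0, 0 and 2.33 CPM in untreated and 0.837, 2.46 and 0.160 in treated dark zone libraries, 0.131, 2.47 and 0.0463 in light zone control and 0.760, 3.78 and 0 in light zone treated libraries. Per kilobase it was the lowest of the 10 genes, with a median of 0.192 CPM per kilobase. All groups overlapped, and no difference could be told from the spread between libraries (zone averaged log2 difference 0.28, SE 1.54, edgeR adjusted p = 0.994).

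Cdkn2c encodes the INK4 inhibitor p18. In the fit without a term for the outlying libraries, it was the only member with treatment differences of opposite sign in the 2 zones, each beyond 1 SE. Dark zone controls held 24.8, 13.5 and 16.1 CPM and treated dark zone libraries 25.5, 40 and 44.1 CPM, which did not overlap, by a narrow margin. Light zone controls held 50.2, 58.9 and 19.0 CPM and treated light zone libraries 3.33, 20.7 and 6.66 CPM, where the highest treated library was just above the lowest control. The log2 difference with treatment was 1.01 in the dark zone (SE 0.71, edgeR adjusted p = 0.581) and -2.06 in the light zone (SE 0.73, adjusted p = 0.674, unadjusted p = 0.0175). The difference between these effects was -3.07 (SE 1.02, edgeR adjusted p = 1, unadjusted p = 0.0123), and -4.38 in the 9 libraries. With a term for the outlying libraries the dark zone treatment difference was 0.58 (SE 0.73), under 1 SE. It was 1.29 in the 9 libraries, with replicate 3 as the only treated dark zone library. Light zone treated libraries lay below dark zone treated ones without overlap (log2 difference -1.84, SE 0.73, edgeR adjusted p = 1, unadjusted p = 0.0291). Without light zone treated replicate 2, the outlying library of that group, the treatment difference in the light zone was -3.09 and the zone difference in treated libraries -2.88. Averaged over treatments the zones differed by -0.30 (SE 0.50, edgeR adjusted p = 0.991), or by -0.94 in the 9 libraries, -0.82 without light zone treated replicate 2 and -0.09 without light zone treated replicate 1. Groups did not overlap in 1 of 10 members between zones under treatment, against 5.79% of all genes. Cdkn2c lies on chromosome 4 from 109660876 to 109667189.

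Rb1, the pocket protein that D cyclin complexes phosphorylate, overlapped between all groups. Dark zone controls held 49.3, 3.09 and 11.6 CPM, and treated dark zone libraries 11.1, 11.6 and 9.25 CPM. Light zone controls held 9.03, 66.8 and 38.7 CPM, and treated light zone libraries 28.7, 15 and 2.22 CPM. Treated means were below control means in both zones (10.7 against 21.3 and 15.3 against 38.2 CPM). Averaged over treatments the zones differed by 0.68 (SE 0.78, edgeR adjusted p = 0.991), or 1.45 without dark zone control replicate 1 and 0.27 without light zone treated replicate 1. Rb1 lies on chromosome 14 from 73183673 to 73325822 and shares 896 exon bases with Rcbtb2 and Lpar6.

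E2f1 and E2f2, activating E2F factors of the G1 to S transition, were both highest in the 3 outlying libraries. E2f1 stood at 14.1, 13.7 and 5.83 CPM in untreated and 61.9, 58 and 1.84 in treated dark zone libraries, 22.1, 5.74 and 3.71 in light zone control and 20.8, 64.2 and 24.6 in light zone treated libraries. E2f2 stood at 23.7, 31.7 and 13.1 CPM in untreated and 70.1, 63.2 and 8.65 in treated dark zone libraries, 6.02, 21.4 and 19.1 in light zone control and 18.7, 56.8 and 18.8 in light zone treated libraries. Within dark zone treated libraries replicate 3 was below every dark zone control for both genes, so its groups overlapped while replicates 1 and 2 lay above. With all 12 libraries the treatment difference in the dark zone was 1.85 for E2f1 (SE 1.11, edgeR adjusted p = 0.546) and 1.05 for E2f2 (SE 0.83, adjusted p = 0.618). In the 9 libraries it turned to -2.59 and -1.39, with replicate 3 as the only treated library. Averaged over treatments the zones differed by -0.12 for E2f1 (SE 0.76, edgeR adjusted p = 0.996) and -0.57 for E2f2 (SE 0.58, adjusted p = 0.991). In the 9 libraries these values were 1.78 and 0.29, and with a term for the outlying libraries 0.88 and -0.06. E2f1 lies on chromosome 2 from 154559407 to 154569892 and E2f2 on chromosome 4 from 136172394 to 136196057.

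**Figure D2:**
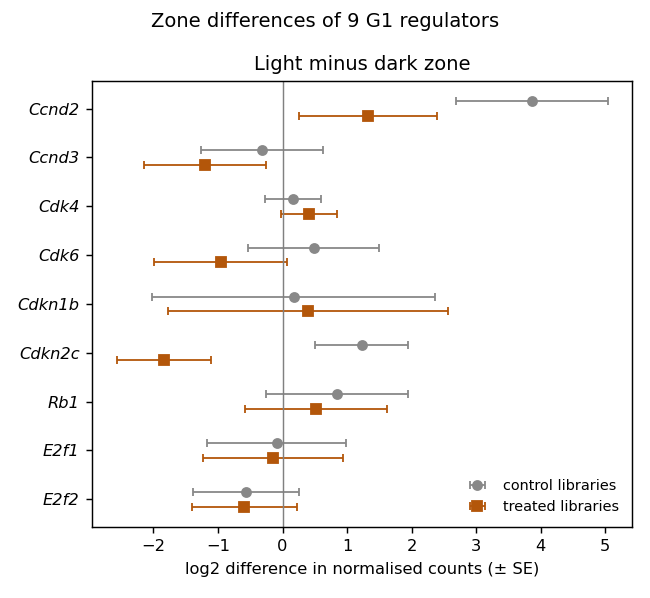
Light minus dark zone log2 difference (horizontal axis, point ± SE) of 9 genes in control and in treated libraries; Cdkn1a is left out because dark zone controls were at 0. Ccnd2 has the largest difference in controls (3.86), and Cdkn2c has differences of opposite sign in control and treated libraries (1.23 and -1.84).

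Across the 10 genes, comparisons between zones gave few differences. In controls 7 were higher in the light zone and 3 lower (median log2 difference 0.32, against 0.00 over all tested genes). EdgeR called 0 of 10 members and 0% of all genes at an adjusted p under 0.05. At an unadjusted p under 0.05 it had 2 members, Ccnd2 and Cdkn1a, against 4.93% of genes, and DESeq2 called the same pair against 0.935% of genes. Limma-voom with quality weights called no member (0.00828% of genes). In treated libraries 4 members were higher and 6 lower (median -0.13, against 0.05), and in the 9 libraries 7 higher and 3 lower (median 0.60, against 0.09). EdgeR called 0% of genes there too, with 1 member, Cdkn2c, at an unadjusted p under 0.05 against 2.06% of genes, and DESeq2 called no member (0.00828%). Over both treatments 5 members were higher and 5 lower, edgeR again called 0% of genes, and 2 members were at an unadjusted p under 0.05 against 4.93%. DESeq2 called 1, Ccnd2, against 0.53% of genes. The change of zone difference with treatment gave 2 members at an unadjusted p under 0.05, Cdkn1a and Cdkn2c, against 2.28%; by adjusted p neither edgeR (0%) nor DESeq2 (0.132%) called a member.

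Treated against control comparisons of the same genes depended in part on the outlying libraries, without which 1 dark zone treated library is left. In the dark zone 9 of 10 were higher in treated libraries (median log2 difference 1.45, against 0.06 over all genes), and in the 9 libraries 6 were higher and 4 lower (median 0.82, against -0.11). The groups did not overlap in 5 members, Ccnd2, Ccnd3, Cdk6, Cdkn1a and Cdkn2c, all higher under treatment. Of all genes 23.7% had groups without overlap, counting both directions, and 12.5% were higher without overlap. In these 5, dark zone treated replicate 3, the library of that group that was not outlying, lay above all 3 controls by definition. Among the other members it did so in Cdk4 only, where 26.2% of all genes had this replicate above the controls. EdgeR called none of the members (0% of genes), and 3 of them, Ccnd2, Ccnd3 and Cdkn1a, had an unadjusted p under 0.05, against 8.9% of genes. DESeq2 called 1 member, Cdkn1a, against 0.596%, and limma-voom with quality weights called 4, Ccnd3, Cdkn1a, E2f1 and E2f2, against 26.3%. Light zone values were higher for 8 and lower for 2 (median 0.58, against 0.10), but 5 and 5 in the 9 libraries (median -0.10, against -0.04). No member's groups separated there, against 11.3% of genes. Cdkn2c was the member with an unadjusted p under 0.05 (7.36% of genes), and neither edgeR (0% of genes) nor DESeq2 (1.79%) called any of the 10. Scaling by library totals alone moved the median of all genes by 0.45 in the dark zone and 0.29 in the light zone, and left these counts of higher members at 9 and 8.

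**Figure D3:**
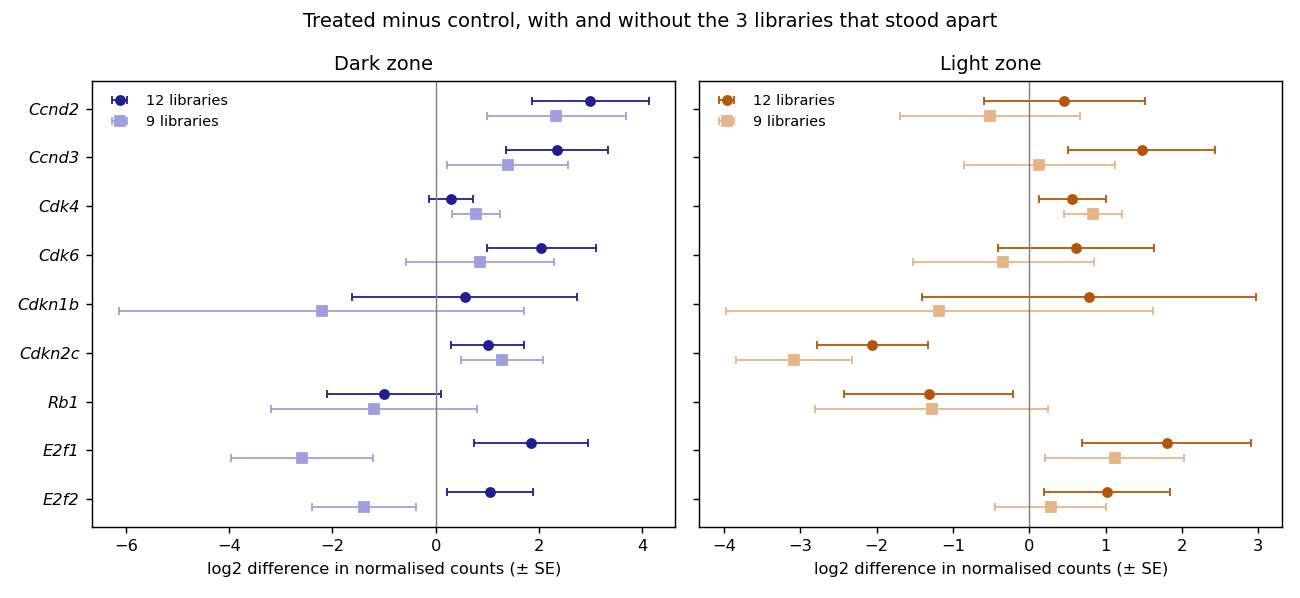
Treated minus control log2 difference (horizontal axis, point ± SE) of 9 genes in each zone, with all 12 libraries and with the 9 left without the outlying ones; Cdkn1a is left out because dark zone controls were at 0. E2f1 and E2f2 change sign in the dark zone (1.85 to -2.59 and 1.05 to -1.39), and Cdkn2c stays below 0 in the light zone (-2.06 and -3.08).

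Other genes of the pathway gave no call by edgeR in any of the 6 comparisons. Of 20 further G1 regulators, which include cyclin E, CDK2 and other E2F and pocket protein genes, 17 are listed in the files and 16 were tested. In treated against control dark zone libraries 9 of 16 were higher and 7 lower (median 0.12), and in the 9 libraries 7 and 9 (median -0.17). Light zone values were higher for 8 and lower for 8 (median -0.03), and in the 9 libraries for 9 and 7 (median 0.16). Cdk2, the kinase that takes over from CDK4 late in G1, had 106 ± 32.5 CPM in dark zone controls and 37.2 ± 12 CPM in light zone controls (SD, n = 3 each). The log2 difference was -1.51 (SE 0.48, edgeR adjusted p = 1, unadjusted p = 0.00971). Under treatment it had 59.1 ± 17.6 CPM in the dark zone and 103 ± 57.2 in the light zone, so that the sign of its zone difference turned (difference of the effects 2.31, SE 0.67, edgeR adjusted p = 1, unadjusted p = 0.00592). The cyclin E gene Ccne2 lay below all others in the outlying libraries (11.4 to 20.1 against 84.4 to 193 CPM), while E2f4 lay above (54 to 72.7 against 4.19 to 31.1).

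All 22 E2F target genes of S phase were tested. In the dark zone 18 were higher under treatment and 4 lower (median 0.58, against 0.06 over all genes), and in the 9 libraries 20 and 2 (median 0.54, against -0.11). Light zone values were higher for 15 and lower for 7 (median 0.29), and in the 9 libraries 12 and 10 (median 0.08). Cdc6, which loads the replicative helicase, had 17.2 ± 4.81 CPM in untreated and 54.3 ± 18.3 CPM in treated dark zone libraries (log2 difference 1.66, SE 0.50, edgeR adjusted p = 0.528, unadjusted p = 0.0072). Within the outlying libraries these targets did not move together. The helicase subunit genes Mcm5, Mcm6 and Mcm7 were above all other libraries (Mcm5 at 363 to 445 against 40 to 143 CPM). Pcna, the polymerase clamp, and Tyms, a gene of thymidylate synthesis, were below all others (Pcna at 311 to 442 against 865 to 1456 CPM). In all, 6 of the 22 lay above and 4 below, where 13.7% and 16.7% of all genes did.

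Of 12 p53 target genes, which share a regulator with Cdkn1a, 10 were tested. In the dark zone 8 were higher under treatment and 2 lower (median 0.30), and 4 and 4 of 8 tested in the 9 libraries (median 0.10). Light zone values were likewise higher for 8 and lower for 2 (median 0.95, against 0.10 over all genes), with Sesn2 and Bbc3 at an unadjusted p under 0.05, and in the 9 libraries for 4 and 4 (median 0.12). The stress gene Sesn2 was near the floor outside the outlying libraries (0 to 0.516 against 3.03 to 6.88 CPM), unlike Cdkn1a. Of 14 regulators upstream of the D cyclins and their inhibitors, 13 were tested, and 12 were higher under treatment in the dark zone (median 1.47) but 8 of 13 in the 9 libraries (median 0.14). Gsk3b, a kinase that marks cyclin D for degradation, had the smallest p there (2.96 ± 1.89 CPM in untreated and 22.3 ± 7.86 CPM in treated dark zone libraries, log2 difference 2.92, SE 1.19, edgeR adjusted p = 0.528, unadjusted p = 0.033). Of the 13 genes 7 lay above all other libraries in the 3 outlying ones, as did 13.7% of all genes; among them were Gsk3b (22.3 to 29.6 against 0.804 to 22.2 CPM), Foxo1, a repressor of D cyclin genes in many cells (197 to 261 against 20.9 to 121 CPM), and the NF-kB subunit gene Nfkb2 (18.1 to 66.3 against 0.327 to 15.3 CPM).

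**Figure D4:**
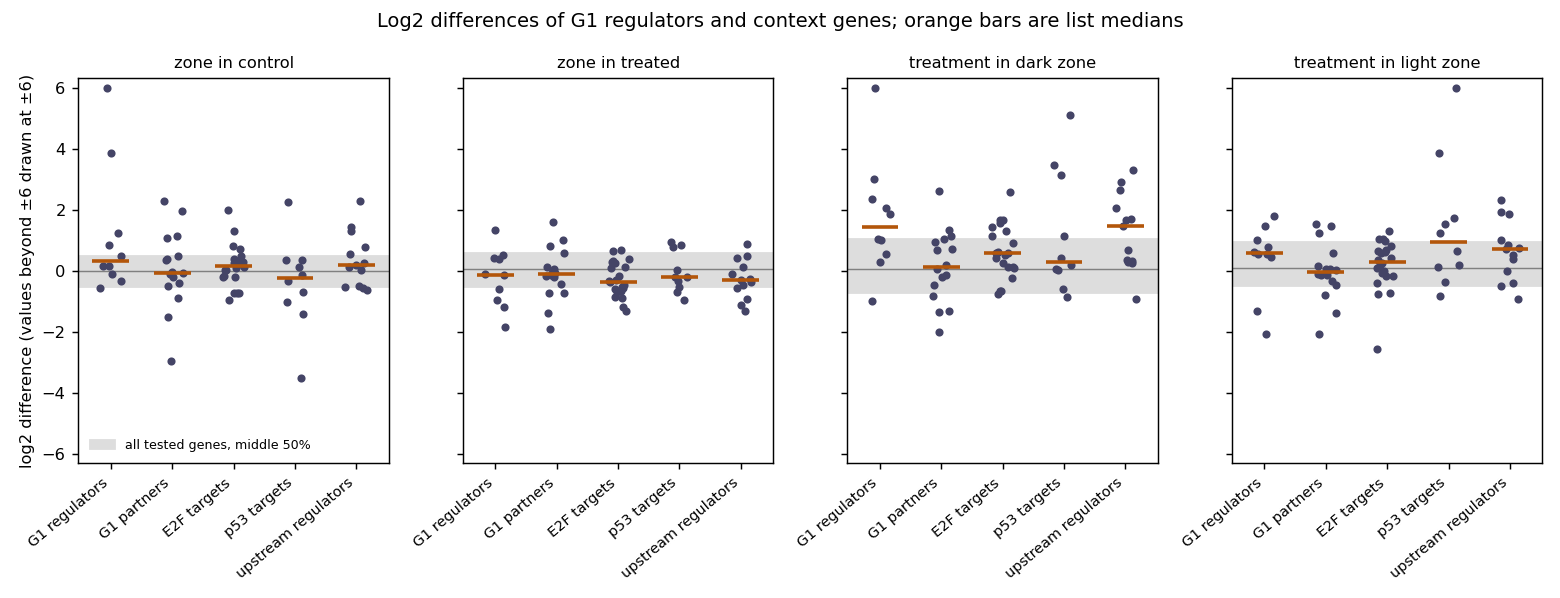
Log2 difference (vertical axis) of each gene of 5 lists in 4 comparisons, with orange bars at list medians and a grey band for the middle 50% of all tested genes. In the dark zone treatment comparison the medians of the 10 G1 regulators (1.45) and the upstream regulators (1.47) lie above the median of all genes (0.06).

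The genes with the level pattern most like Ccnd2 and E2f1 were taken from the 7267 genes whose mean level reached 10 CPM. In the 9 libraries these were, for Ccnd2, Tbx20 (Pearson r = 0.96, Spearman rho = 0.83), Tk1 (0.94 and 0.97), Slc43a3 (0.94 and 0.80), Mlf1 (0.93 and 0.80) and Rab30 (0.93 and 0.93). For E2f1 they were Pde11a (r = 0.96, rho = 0.90), Cnot4 (0.96 and 0.90), Havcr1 (0.94 and 0.88), Cgrrf1 (0.94 and 0.97) and Laptm4a (0.94 and 0.93). With all 12 libraries the same rule gave Ifi30, Pdia6, Dnajb11, Napsa and Zmynd19 for Ccnd2 and Ciita, Rcc2, Rrp1, Wrnip1 and Rrbp1 for E2f1; no coefficient is given for these, since the libraries form separate sets. The 2 ways of choosing share no gene. Being the highest of 7267 over 9 libraries, these coefficients describe the libraries only. Among the 10 genes themselves, in the 9 libraries, Ccnd2 and Cdkn1a had the highest Pearson coefficient (r = 0.68, rho = 0.74), and Cdk4 and Cdkn1a a higher Spearman coefficient (r = 0.60, rho = 0.76). Cdkn1a was near or at the floor in most of the 9 (median 0.117 CPM), so these coefficients may mainly reflect its presence or absence.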

How the data were processed

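RNA of 12 libraries (3 per group) was measured by sequencing; per the labels' protocols, cDNA was made with a SMART-Seq v4 kit and libraries with Nextera XT. Per the submitters' processing notes BWA and mm10 were used; for the counting program, annotation and gene filter no source used here gives details. Values deposited by the authors are expected counts per symbol, whole or midway between whole numbers; how midway values arose is not given, so for genes with several transcripts a value may not be a count per gene. Midway values were rounded up and blank cells read as 0.

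Genes passing filterByExpr (minimum count 10, minimum total 15) were tested in edgeR 4.0.16 (R 4.3.3) by its robust quasi-likelihood test after TMM scaling, in 1 fit of all 12 libraries with a term per group. Adjusted p-values are two-sided Benjamini-Hochberg values over all 12081 tested genes (threshold 0.05), and the SE is the absolute log2 difference divided by the square root of F. The edgeR test was checked on simulated counts, with 50 genes changed at each fold in light zone controls. With the spread fitted to these data it called 0 of 50 genes changed 4-fold, 5 changed 8-fold and 12 changed 16-fold. With a dispersion of 0.05 for every gene it called all 50 changed 4-fold. At the fitted spread, the lack of an edgeR call does not show that a gene is unchanged. Alternatives were DESeq2 1.42.0, limma 3.58.1 (voom with quality weights), other scalings, no filter, 9 libraries, a term for the outlying libraries, replicate blocks and each library left out. Lists are described by counts and medians without a test. The 10 genes, the lists and the outlying libraries were chosen with earlier results of these data known. All 10 genes are named; a log2 difference is given for each in the averaged zone comparison and elsewhere where the unadjusted p was under 0.05 or groups did not overlap, and further values were added after the data were seen. The fold of Cdkn1a is a bound for counting error only, because a group was at 0. Of the genes named from the lists, some had the smallest p of their list, and the others were chosen after their values were seen. Positions come from GENCODE M21; sequences come from RefSeq (GRCm38.p6), cut to the 250 bases before the start.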

Additional observations from a re-analysis of the deposited data

How the results depend on the processing

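EdgeR called 0 genes in all 6 comparisons under every edgeR alternative except 1, a term for the 3 outlying libraries, which gave 2 genes for zone averaged, none a member; leaving out each library in turn also gave 0 to 0. DESeq2 called 113 genes for zone in control, 1 for zone in treated, 72 for treatment in dark zone, 216 for treatment in light zone, 64 for zone averaged and 16 for the interaction. Limma-voom with quality weights called 1 for zone in control and 3178 for treatment in dark zone. Under these tools members that passed were Ccnd2 (3.88 in control and 2.60 averaged, DESeq2), Ccnd3 (2.73 in the dark zone, voom) and Cdkn1a, whose fitted values are no bound (9.57 for zone in control and 10.20 for treatment in dark zone by DESeq2, 8.97 by voom), besides E2f1 and E2f2 by voom. The cause of these differences between tools was not tested.

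In the averaged zone comparison the sign of a log2 difference turned in 20 pairs of member and setting, with 23 alternatives per member. The members were Cdk6, Cdkn1b, E2f1 and E2f2. For treatment in the dark zone E2f1 and E2f2 turned from 1.85 and 1.05 to -2.59 and -1.39 in the 9 libraries and to -1.21 and -0.92 with a term for the outlying ones. The log2 differences that follow are again of the averaged zone comparison. Cdkn1b was -1.36 by voom and -1.18 with the replicate number as a block. E2f1 was 1.78 in the 9 libraries, 0.88 with a term for the outlying ones, 0.17 as a mean of log2 CPM, and 0.10 and 0.09 with a replicate block by number or by treatment and number. E2f2 was 0.29 in the 9 libraries. With each library left out, the ranges were -0.81 to 0.04 for Cdk6, -1.35 to 3.87 for Cdkn1b and -0.70 to 0.08 for E2f1. Mean levels moved by more than 1 SD for Cdkn1a (16.2 CPM) and Rb1 (13.4 CPM) in dark zone treated libraries scaled by totals alone, a scaling added after the data were seen for the tests. Replicate numbers do not show pairing: 3 of 6 same-numbered pairs of zones had correlated deviations over 0.1 and 2 of 6 dark zone libraries correlated best with their own number; the block changed no call, with 0 genes. Given its low level and the spread between libraries, Cdkn1b could not be compared.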
